A study of Mus musculus with 2 samples.

Results

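The BMP and TGF-beta pathway genes described here are 47 mouse genes chosen by name for their role in the pathway: 13 ligands, 12 receptors, 8 Smads, 8 antagonists and latency proteins, and 6 Id and Msx target genes. Each of the 47 symbols had 1 entry among the 23950 symbols measured, with a usable value in both libraries. The samples are optic nerves taken from mice of mixed strain at postnatal day 12, and their RNA was sequenced as 1 library for each group. The control library came from Hdac3 f/+; Olig1-cre animals and the cKO library from Hdac3 f/f; Olig1-cre animals. Both groups therefore carry the recombinase and at least 1 Hdac3 allele that it can delete, and the controls are not wild type. Cre is driven from Olig1, a gene of the oligodendrocyte lineage. How many animals each library pools is not given. The study's title places HDAC3, a histone deacetylase, in the choice between oligodendrocyte and astrocyte fates.

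BMPs, GDFs, activins and TGF-betas are secreted dimers that bring together type I and type II receptor kinases. The type I receptor then phosphorylates receptor-regulated Smads, Smad1, Smad5 and Smad9 in the BMP branch and Smad2 and Smad3 in the TGF-beta and activin branch, which enter the nucleus with Smad4. Inhibitory Smads, secreted antagonists and latency proteins hold the signal in check. In the developing central nervous system BMP signalling is known to favour astrocytes over oligodendrocytes, in part through Id proteins, which bind bHLH transcription factors such as Olig1 and Olig2.

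Activated Smad complexes are known to bind GC-rich elements such as GGCGCC, in the BMP branch, and the palindrome GTCTAGAC or its core GTCT. Promoter windows of 250 bases before to 50 bases after the start of transcription were available from RefSeq (GRCm38.p6) for 34 of the 47 genes, in 40 windows. The windows below are shown for Gdf10, the ligand with the largest difference, and as examples of the motifs in known BMP targets for Id2 and for the inhibitory Smad6, neither of which met the 2-fold rule described below. They are printed 5′ to 3′ on the strand of the gene, with the motif in capitals, GGCGCC for Gdf10 (chr14:33923337-33923636, plus strand) and Id2 (chr12:25096043-25096342, minus strand) and GTCTAGAC for Smad6 (chr9:64022010-64022309, minus strand).
Gdf10: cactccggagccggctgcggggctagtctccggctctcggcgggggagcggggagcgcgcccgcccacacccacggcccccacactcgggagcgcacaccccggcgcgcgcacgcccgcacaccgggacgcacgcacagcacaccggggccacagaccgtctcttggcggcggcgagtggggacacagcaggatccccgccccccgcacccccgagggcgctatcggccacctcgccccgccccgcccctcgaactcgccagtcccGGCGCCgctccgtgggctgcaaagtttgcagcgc
Id2: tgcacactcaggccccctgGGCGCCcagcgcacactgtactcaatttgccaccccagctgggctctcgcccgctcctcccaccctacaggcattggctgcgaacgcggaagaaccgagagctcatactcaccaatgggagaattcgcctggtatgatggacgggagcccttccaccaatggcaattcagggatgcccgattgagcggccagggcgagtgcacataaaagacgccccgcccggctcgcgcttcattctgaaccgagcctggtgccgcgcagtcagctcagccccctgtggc
Smad6: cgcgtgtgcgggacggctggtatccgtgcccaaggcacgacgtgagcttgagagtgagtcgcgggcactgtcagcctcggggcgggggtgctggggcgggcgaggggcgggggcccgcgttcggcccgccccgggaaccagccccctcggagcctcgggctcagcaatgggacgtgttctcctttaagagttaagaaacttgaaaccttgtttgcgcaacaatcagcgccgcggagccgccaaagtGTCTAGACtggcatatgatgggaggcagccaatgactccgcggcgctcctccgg

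The GGCGCC element began 17 bases after the start in Gdf10 and 231 bases before it in Id2, and the palindrome began 4 bases before the start in Smad6. Searched on both strands, GTCTAGAC was in 1 of the 40 windows, that of Smad6, and in 0.213% of the 32851 windows of all genes. GGCGCC was in 12 of the 40 windows (30.0%), those of Acvr1b, Bmpr1a, Bmpr2, Chrd, Gdf10, Grem1, Id2, Id4, Smad5, Smad9 and Tgfbr1, and in 11.9% of all windows. Overlapping windows of Smad5 contain the same element, which is thus counted more than once, and by gene it was 11 of 34. The members' windows had a median GC content of 65.7% against 52.7% for all windows, and the part of base composition in the share of 30.0% was not tested. GTCT, which the palindrome contains on both strands, was in 34 of the 40 windows and in 88.0% of all windows. A match is a run of letters and not evidence that a Smad binds there.

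Levels are given as FPKM, fragments per kilobase of transcript scaled to library size, as deposited, so they can be compared between genes. A gene counted as measured when 1 library or both reached 1 FPKM, which held for 14154 genes and 44 of the 47 members. Inhba, Inhbb and Fst were below 1 FPKM in both libraries, and Grem1 passed only through the cKO library. The difference is log2 of cKO FPKM plus 1 over control FPKM plus 1, which understates the change of low genes. A call of higher or lower needed a 2-fold difference on this scale and deposited FPKM intervals that stayed apart. Separate intervals alone were common, with the cKO interval above that of control for 38.4% of all measured genes and below it for 22.5%. Since each group has 1 library, there is no replicate check and no p-value, and the differences describe these libraries rather than the genotypes. Hdac3 was at 36.4 FPKM in the control library and 38.0 in the cKO library (log2 0.06), a whole-gene value that does not show which exons were read and leaves the genotype labels unchecked.

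In the cKO-labelled library, 7 of the 44 measured members were higher and 1 was lower. They were Gdf10, Bmp6, Bmp7, Tgfb3, Tgfbr3, Fstl1 and Ltbp3 on the higher side and Smad7 on the lower side. The same rule called 4.73% of all measured genes higher and 4.51% lower, against 15.9% of the measured members higher. With a rule of at least 1.5-fold and separate intervals, 18 members were higher and 1 lower, where 16.0% of all measured genes were higher and 8.85% lower. The median difference was 0.49 over the measured members, 0.47 over all 47 and 0.12 over all measured genes. Differences were above 0 for 39 of 44 members and for 61.4% of all measured genes.

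These calls depended on how the libraries were scaled to each other. Gdf10 was the only member called higher after scaling to the same sum of FPKM, where 30 of 43 measured members were still above 0. With equal sums, 1.54% of all measured genes were called higher and 6.89% lower. Bmp6, Gdf10 and Tgfbr3 were those called higher of 44 measured members after centring on the median of all measured genes. After centring, 3.10% of all measured genes were called higher and 5.38% lower. Smad7 was called lower in both, and in every scaling tried. Scaling to the same upper quartile, or to the same sum without small RNAs, called Bmp6, Bmp7, Gdf10, Ltbp3 and Tgfbr3 higher. Of the 44 measured members, 37 and 36 were then above 0. Over all measured genes, 533 were higher and 695 lower with the upper quartile, and 511 and 704 without small RNAs. The factor applied to the cKO library was 0.793 for the same sum and 0.940 when small RNAs were left out. Scaling to the same sum moved the median of all genes from 0.12 to -0.17, and group medians are therefore also given relative to all measured genes. The calls over all genes numbered 638 lower and 669 higher as deposited, so that 51.2% were higher. This share was 36.6% after centring, with 761 lower and 439 higher, and 18.3% with equal sums, with 960 lower and 215 higher.

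**Figure D1:**
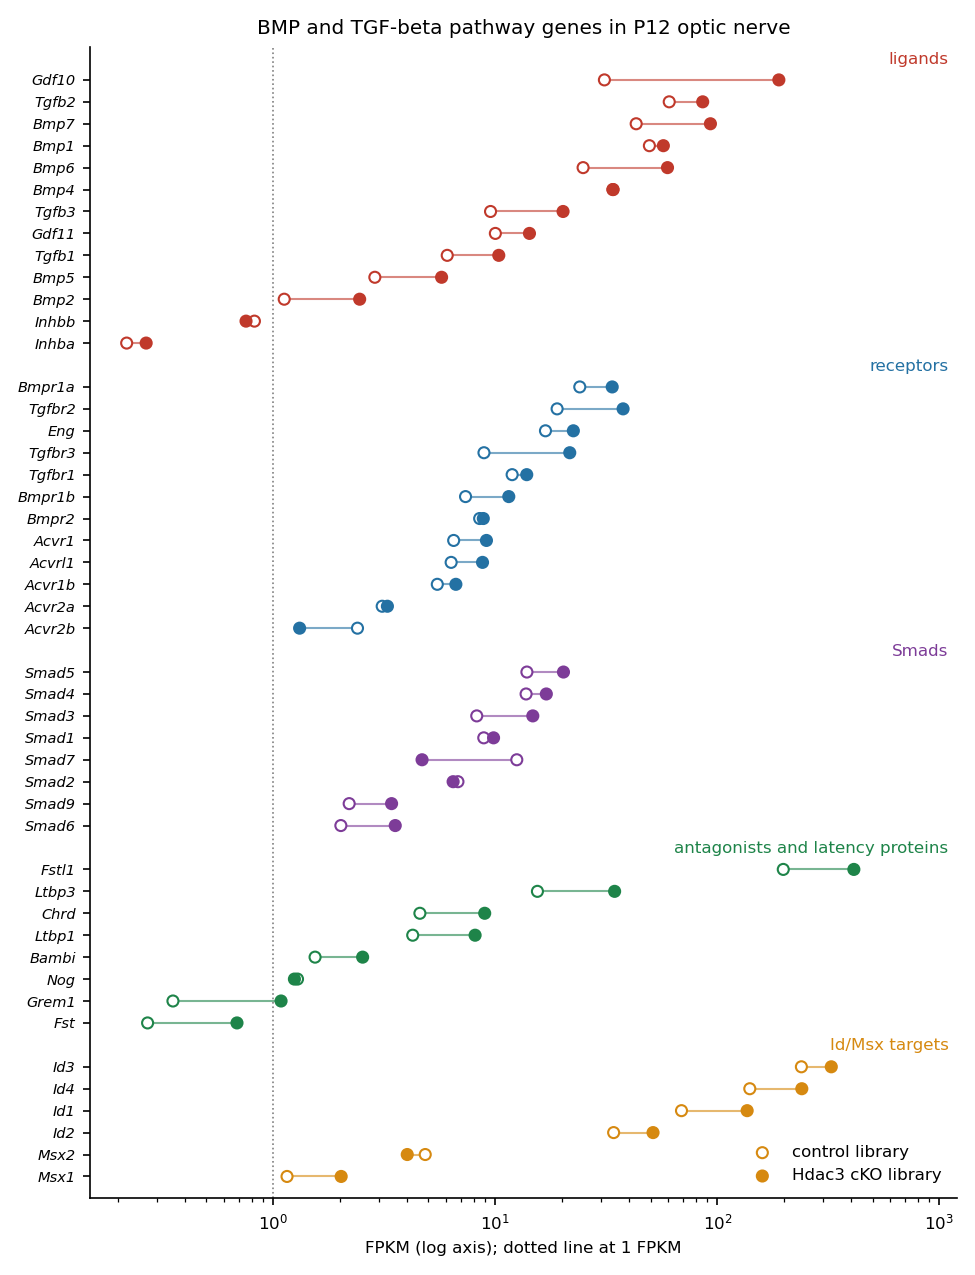
Level of each of the 47 genes in FPKM (log axis) in the control library (open circles) and the Hdac3 cKO library (filled circles), grouped by role and ordered by mean level within a role. Fstl1, at 198 and 412 FPKM, and Id3, at 239 and 326, were the most abundant members, and Inhba and Fst lay left of the dotted line at 1 FPKM in both libraries, as did Inhbb.

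Among the BMP and GDF ligands, Gdf10 had the largest difference of all members and became the most abundant ligand of the list in the cKO-labelled library. Gdf10, also known as Bmp3b, is a divergent member of the family. Its locus is chromosome 14, 34736773 to 34748468, in the mm9 build used for all gene positions below. Its level was 31.0 FPKM in the control library, with a deposited interval of 27.4 to 31.0, and at 189 FPKM in the cKO library, with an interval of 172 to 177. The ratio of the levels was 6.11, the log2 difference was 2.57, and it ranked 143 from the top among the 14154 measured genes. The difference stayed between 2.24 and 2.61 over the other pseudocounts, scalings and filters tried. Its cKO value lies above the upper bound of its own interval, as do the cKO values of 13 members in all, so the intervals do not cover the full error of the estimate.

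Bmp6 and Bmp7 belong to the subgroup of BMPs that signals mainly through Acvr1 and the type II receptors. Bmp7 (chromosome 2, 172693513 to 172765822) was at 43.1 FPKM in control against 93.1 in cKO, with intervals of 39.7 to 43.1 and 87.1 to 89.9 (log2 1.09). Bmp6 (chromosome 13, 38437585 to 38591597) was at 24.9 and 59.6 FPKM, with intervals of 21.8 to 24.99 and 53.8 to 56.5 (log2 1.23). Both were higher in the cKO-labelled library by the rule, but Bmp7 fell short of 2-fold after centring (log2 0.97) and after scaling to the same sum (log2 0.76), and Bmp6 after the latter (log2 0.90).

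Bmp4, the BMP most used to turn glial precursors into astrocytes in culture, did not share this difference. Its level (chromosome 14, 47003196 to 47010274) was 33.8 FPKM in control, with an interval of 31.8 to 35.9, and 33.9 in cKO, with an interval of 33.0 to 35.4. This is a log2 difference of 0.00, or -0.12 to 0.15 from the bounds of the intervals, and it was below 0 after each of the 4 scalings, down to -0.32. Another entry, Gm15217, overlaps the Bmp4 locus and was at 1.002 and 0.511 FPKM.

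The remaining BMP and GDF ligands were lower in level. Bmp2, the closest relative of Bmp4, was at 1.12 FPKM in control against 2.45 in cKO (log2 0.70). Bmp5, of the Bmp7 subgroup, was at 2.87 and 5.73 FPKM (log2 0.80). Gdf11, which signals through the activin branch, was at 10.01 and 14.2 FPKM (log2 0.47). None of these met the 2-fold rule, while Bmp2 and Bmp5 met the 1.5-fold rule.

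Summed over the 7 BMP and GDF ligands, the level was 147 FPKM in the control library and 398 in the cKO library, a ratio of 2.71. Gdf10 made up 21.1% of the control sum and 47.5% of the cKO sum, and Bmp4 23.1% and 8.52%. Without Gdf10 the sums were 116 and 209 FPKM, a ratio of 1.81. The plot of summed ligand levels shows that Bmp7 was the largest share in the control library and Gdf10 in the cKO library.

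**Figure D2:**
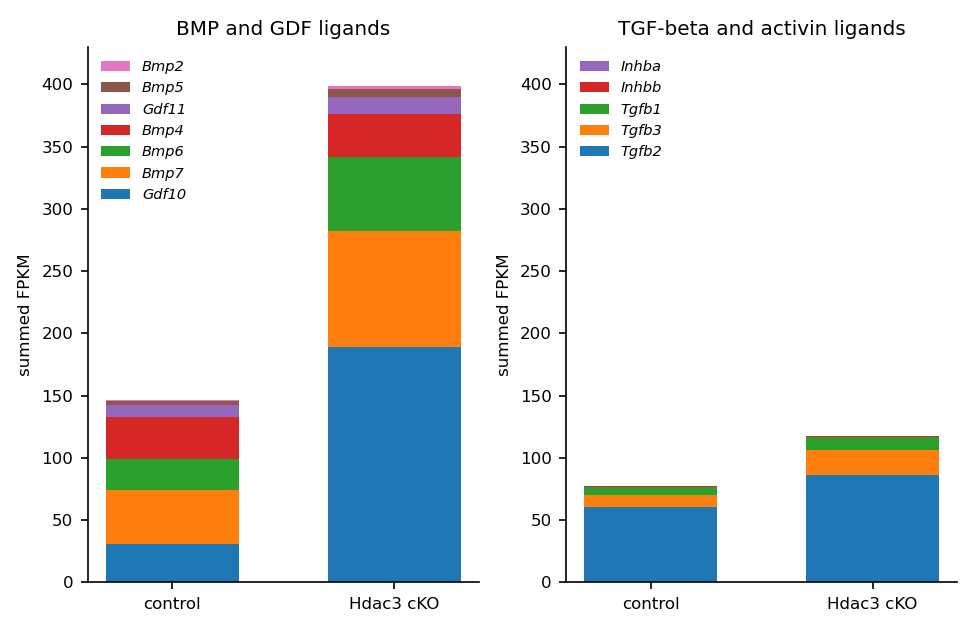
Summed FPKM of the BMP and GDF ligands (left) and the TGF-beta and activin ligands (right) in each library, with 1 bar per library and 1 colour per gene. The left sum goes from 147 to 398 FPKM, with Gdf10 from 31.0 to 189, and the right sum from 77.3 to 117 FPKM.

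The 3 TGF-beta genes kept their order of level, Tgfb2 above Tgfb3 above Tgfb1, in both libraries. Tgfb2 (chromosome 1, 188447065 to 188529871) was at 60.7 FPKM in control, with an interval of 57.0 to 61.1, and at 85.9 in cKO, with an interval of 81.5 to 83.9 (log2 0.49). Tgfb3 (chromosome 12, 87397693 to 87419991) was at 9.52 and 20.2 FPKM, with intervals of 8.44 to 10.3 and 18.6 to 19.99 (log2 1.01). Tgfb1 was at 6.07 and 10.4 FPKM (log2 0.68).

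Of these, Tgfb3 alone met the 2-fold rule, just past its threshold, and it fell short after each of the 4 scalings (log2 0.69 after scaling to the same sum) and with a pseudocount of 5. The activin subunits were barely detected, Inhba at 0.219 and 0.268 FPKM and Inhbb at 0.822 and 0.754. Bmp1 carries a ligand name but encodes a metalloprotease that cleaves procollagens and the BMP antagonist chordin. It was at 49.4 FPKM in control, with an interval of 48.0 to 51.5, and at 57.1 in cKO, with an interval of 56.6 to 59.0 (log2 0.21, and -0.12 after scaling to the same sum).

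The ligands as a group, Bmp1 included, had 4 of 11 measured members higher and 0 lower. Their median difference was 0.70, which is 0.58 above that of all measured genes.

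The receptors differed less than the ligands. Of 12 measured, 1 was higher and 0 lower, with a median difference of 0.41, 0.29 above that of all measured genes. All 6 type I receptors were above 0 on the deposited scale, between 0.20 and 0.58, while Acvr1b and Tgfbr1 were below 0 (-0.05 and -0.11) after scaling to the same sum.

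Bmpr1a, the most abundant type I receptor and a receptor for Bmp2 and Bmp4, was at 24.01 FPKM in control, with an interval of 22.5 to 24.5, and at 33.6 in cKO, with an interval of 31.9 to 33.4 (log2 0.47). Bmpr1b, its close relative, was at 7.34 and 11.5 FPKM (log2 0.58). Acvr1, the type I receptor that Bmp6 and Bmp7 use, was at 6.49 and 9.12 FPKM (log2 0.43). These 3 receptors of the BMP branch had differences of similar size, from 0.43 to 0.58.

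Acvrl1, the endothelial type I receptor known as ALK1, was at 6.33 and 8.76 FPKM (log2 0.41). Acvr1b, the type I receptor for activins, was at 5.48 and 6.64 FPKM (log2 0.24), with overlapping intervals. Tgfbr1, the type I receptor for TGF-betas, was at 11.9 and 13.9 FPKM (log2 0.20). None of the type I receptors met the 2-fold rule or the 1.5-fold rule.

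The type II receptors diverged from one another. Tgfbr2 (chromosome 9, 115996813 to 116084481), which binds TGF-betas directly, was at 19.0 FPKM in control, with an interval of 18.005 to 20.001, and at 37.6 in cKO, with an interval of 37.1 to 38.9 (log2 0.95). Bmpr2, the main type II receptor for BMPs, was at 8.502 and 8.83 FPKM (log2 0.05), and Acvr2a, which binds activins and BMPs, at 3.09 and 3.27 (log2 0.06). The intervals of Bmpr2 and of Acvr2a overlapped between the libraries, and both differences were below 0 after scaling to the same sum (-0.25 and -0.19). Acvr2b, the other activin type II receptor, was at 2.39 FPKM in control against 1.31 in cKO (log2 -0.55) and was the only receptor with a difference below 0 on the deposited scale. Tgfbr2 lay just under the 2-fold threshold and met the 1.5-fold rule.

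Tgfbr3, or betaglycan, a co-receptor that presents TGF-beta2 to the signalling receptors, was the 1 receptor called higher. Its level (chromosome 5, 107535589 to 107718614) was 8.89 FPKM in control, with an interval of 8.23 to 9.43, and 21.6 in cKO, with an interval of 20.6 to 21.6. The log2 difference was 1.19. Tgfbr3 was not called after scaling to the same sum, where the difference was 0.88, or with a pseudocount of 5. Eng, or endoglin, the co-receptor of endothelium, was at 16.8 and 22.5 FPKM, with intervals of 15.5 to 18.1 and 21.1 to 22.7 (log2 0.40). Thus the ligand Tgfb2 was at 1.42 times its control level, its co-receptor Tgfbr3 at 2.43 times, Tgfbr2 at 1.98 times and Tgfbr1 at 1.16 times.

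**Figure D3:**
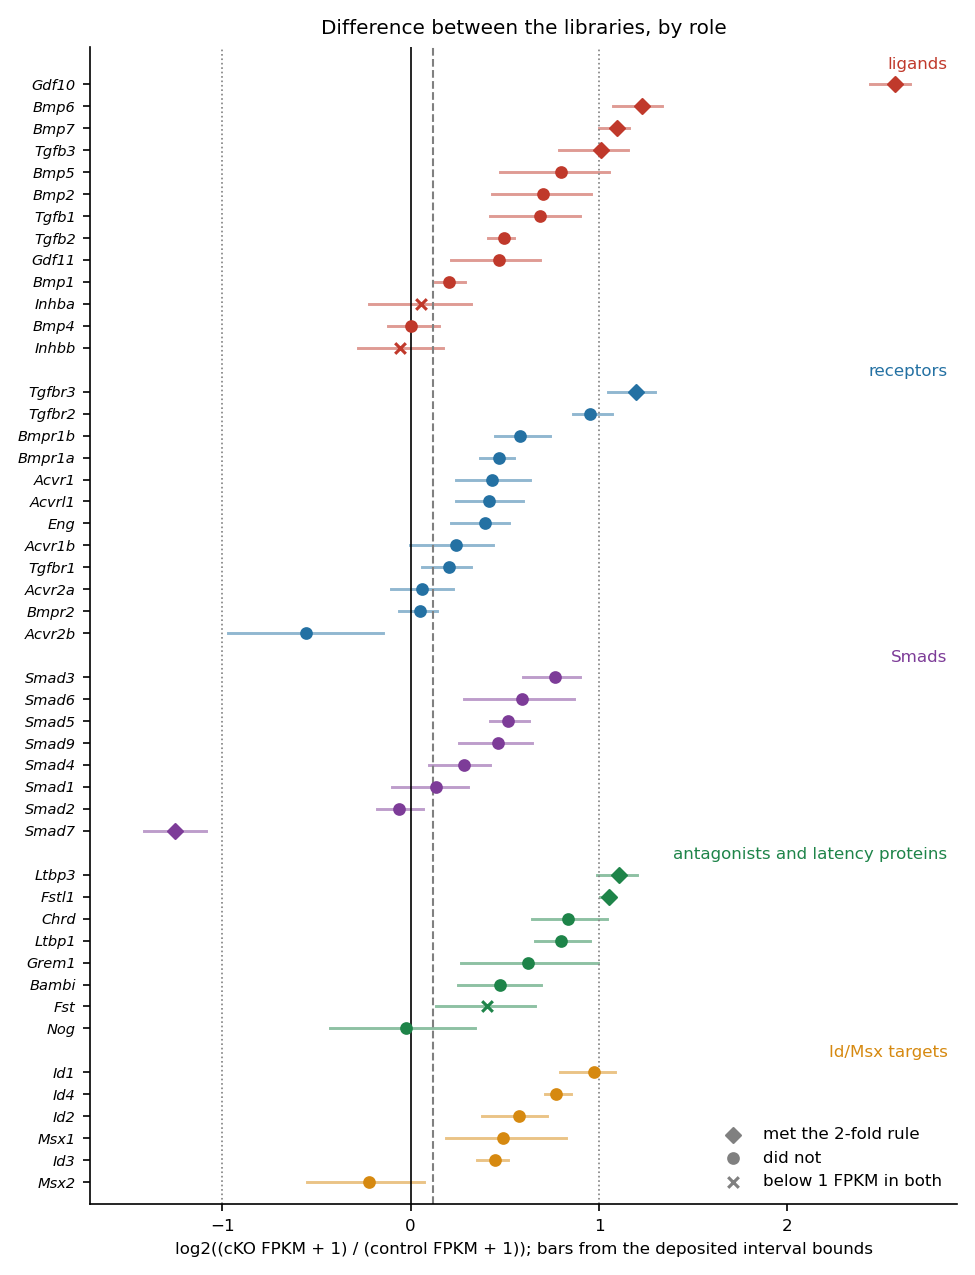
log2 difference of each gene, cKO over control with 1 FPKM added to both, by role, with bars spanning the values that the deposited interval bounds give. The dashed line is the median of all measured genes, 0.12, and the dotted lines mark 2-fold. Gdf10 lies farthest right at 2.57, and Smad7, at -1.25, is the 1 member past the left line.

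Of the 8 measured Smads, 1 was lower and 0 higher, with a median difference of 0.37, 0.25 above that of all measured genes. By their mean, which Smad7 pulls down, the group was 0.05 above all genes.

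Smad7 and Smad6 are both inhibitory Smads, and they differed in opposite directions between the libraries. Smad7, which blocks both branches at the type I receptor, was at 12.5 FPKM in control, with an interval of 11.4 to 13.1, and at 4.68 in cKO, with an interval of 4.29 to 4.85 (chromosome 18, 75527019 to 75555588). Its log2 difference was -1.25, with -1.41 to -1.09 from the interval bounds, and it ranked 495 from the bottom of the measured genes. It stayed lower by the rule in each setting except with a pseudocount of 5 (log2 -0.85). Smad6, which acts mainly on the BMP branch, was at 2.02 and 3.54 FPKM (log2 0.59), below the 2-fold threshold and past the 1.5-fold rule. Its difference was above 0 in every scaling, the lowest value over all alternatives being 0.28.

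Among the receptor-regulated Smads of the BMP branch, Smad5 was the most abundant, at 13.9 FPKM in control, with an interval of 13.2 to 14.6, and 20.3 in cKO, with an interval of 19.9 to 21.0 (log2 0.52). Smad1 was at 8.87 and 9.82 FPKM (log2 0.13), with overlapping intervals. Smad9, which can act as a weak or inhibitory member, was at 2.20 and 3.41 FPKM (log2 0.46). Smad5 and Smad9 stayed above 0 in every scaling, while Smad1 was at -0.17 after scaling to the same sum.

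In the TGF-beta branch, Smad3 was at 8.25 FPKM in control against 14.8 in cKO (log2 0.77) and Smad2 at 6.79 and 6.46 (log2 -0.06). Smad3 was the more abundant of the pair in both libraries. Smad4, the partner of both branches, was at 13.8 and 17.0 FPKM (log2 0.28, and -0.03 after scaling to the same sum). The intervals of Smad2 overlapped between the libraries, and those of Smad3 did not.

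Of the antagonists and latency proteins, 2 of 7 measured were higher and 0 lower, with a median difference of 0.80, 0.68 above that of all measured genes. The classical BMP antagonists were at low levels. Nog, or noggin, which binds BMPs and keeps them from their receptors, was at 1.29 FPKM in control against 1.25 in cKO (log2 -0.03). Chrd, or chordin, was at 4.57 and 8.96 FPKM (log2 0.84), and the Thpo entry that overlaps its locus was at 0.686 and 1.23 FPKM.

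Grem1, or gremlin, was at 0.353 and 1.08 FPKM and Fst, or follistatin, the activin antagonist, at 0.272 and 0.686. Bambi, a pseudoreceptor without a kinase domain, was at 1.54 and 2.53 FPKM (log2 0.47). Chrd met the 1.5-fold rule, and neither Nog nor Bambi did. Grem1 is among the 18 members past that rule, but since it reached 1 FPKM only in the cKO library it could enter only on the higher side, and its call is no support.

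Fstl1, a secreted glycoprotein related to follistatin, had the highest mean level of the whole list, although Id3 was higher in the control library. It (chromosome 16, 37777141 to 37836602) was at 198 FPKM in control, with an interval of 185 to 193, and at 412 in cKO, with an interval of 386.8 to 392.3 (log2 1.05). Both values lie above their own intervals, and Fstl1 was not called after any of the 4 scalings, with 0.72 after scaling to the same sum.

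The latency proteins tether TGF-beta to the matrix until it is activated. Ltbp3 (chromosome 19, 5740904 to 5758532) was at 15.5 FPKM in control, with an interval of 14.6 to 16.3, and at 34.5 in cKO, with an interval of 33.3 to 34.9 (log2 1.11). Ltbp1 was at 4.25 and 8.11 FPKM (log2 0.80). Ltbp3 was called higher and fell short after centring (log2 0.99), after scaling to the same sum (log2 0.78) and with a pseudocount of 5.

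The 4 Id genes were among the most abundant members in both libraries, and none met the 2-fold rule. Id1 (chromosome 2, 152561987 to 152563146) was at 69.0 FPKM in control, with an interval of 51.6 to 59.9, and at 136 in cKO, with an interval of 105 to 110 (log2 0.97). Id4 (chromosome 13, 48356796 to 48359405), known to hold back oligodendrocyte differentiation, was at 140 FPKM in control, with an interval of 136 to 146, and at 240.1 in cKO, with an interval of 240 to 247 (log2 0.77). Id1 and Id4 met the 1.5-fold rule.

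Id2 was at 34.1 FPKM in control, with an interval of 27.2 to 32.1, and at 51.3 in cKO, with an interval of 42.1 to 45.5 (log2 0.58). Id3 was at 239 FPKM in control, with an interval of 184 to 198, and at 326 in cKO, with an interval of 253 to 263 (log2 0.45). Both values of Id1, Id2 and Id3 lie above their own intervals. The differences of the 4 Id genes were above 0 in all settings tried, the lowest for each being 0.64 for Id1, 0.44 for Id4, 0.25 for Id2 and 0.11 for Id3.

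Msx1 and Msx2 are homeobox targets of BMP signalling in neural crest and limb. Msx2 was at 4.84 FPKM in control against 4.01 in cKO (log2 -0.22), with overlapping intervals. Msx1 was at 1.15 and 2.02 FPKM (log2 0.49), while Msx1os, an entry within the same locus, was at 2.68 and 4.60 FPKM, and the sources used here do not state that reads were counted by strand, so the Msx1 value is uncertain. The 6 targets together had 0 members called, with a median difference of 0.53, 0.41 above that of all measured genes.

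**Figure D4:**
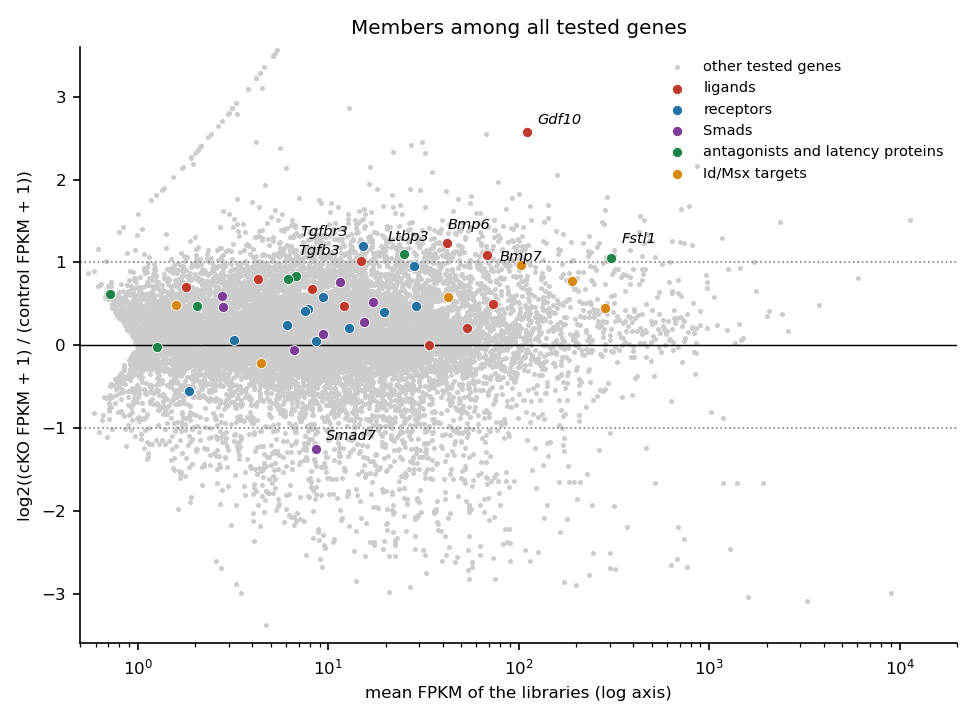
Mean FPKM of the libraries (log axis) against the log2 difference for all measured genes (grey) and the measured members (coloured by role), with the called members named. Gdf10 stands at 2.57 and Smad7 at -1.25, while most members lie between 0 and the upper dotted line at 2-fold. A total of 149 measured genes lie outside the plotted range.

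Another 102 genes of the pathway were followed in 7 lists taken from general knowledge. Of these, 67 were measured, with 13 higher (19.4%) and 1 lower (1.49%) in the cKO-labelled library and a median difference of 0.67. Over all measured genes, 4.73% were higher and 4.51% lower, which is the background for each list below. Scaling to the same sum left 2 of the 67 higher, Dcn and Tgfbi, and 2 lower, where 1.54% of all measured genes were higher and 6.89% lower.

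Secreted antagonists and modulators outside the member list had 5 of 13 measured genes higher, and all 13 differences were above 0 in every scaling, with a median of 0.85. Nbl1, a gremlin relative also known as DAN, was at 134 FPKM in control against 337 in cKO (log2 1.32). Twsg1, which acts with chordin, was at 27.9 and 57.3 FPKM (log2 1.01), and Crim1, which binds BMPs at the cell surface, at 6.03 and 13.8 (log2 1.08). Dcn, or decorin, a proteoglycan that binds TGF-beta, was at 138 and 429 FPKM (log2 1.63), and Htra1, a protease that acts on the pathway, at 31.7 and 65.8 (log2 1.03). Bgn, or biglycan, the most abundant of this list with Dcn, was at 185 and 368 FPKM (log2 0.99) and was not called. Dcn is also in the fibroblast marker list, and the part of fibroblasts in its difference was not tested.

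Genes of TGF-beta latency and activation had 2 of 11 measured genes higher. Thbs1, a thrombospondin that can activate latent TGF-beta, was at 4.59 and 12.6 FPKM (log2 1.29), and Emilin1, an inhibitor of TGF-beta maturation, at 13.7 and 33.2 (log2 1.22). Ltbp4, at 23.3 and 44.0 FPKM (log2 0.89), and Fbn1, the matrix partner of the latency proteins, at 18.1 and 35.2 (log2 0.92), were the most abundant and were not called.

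The intracellular regulators had 0 of 18 genes higher and 1 lower, 5.56% against 4.51% of all measured genes. Their median of 0.15 turned to -0.15 after scaling to the same sum. Smurf1, a ubiquitin ligase that Smad6 and Smad7 bring to receptors and Smads, was lower, at 32.4 FPKM in control against 15.2 in cKO (log2 -1.04). Fkbp1a, which binds type I receptors, was at 225 and 126 FPKM (log2 -0.83), and Stub1, a ubiquitin ligase, at 36.3 and 48.1 (log2 0.40).

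Genes known to be induced by TGF-beta had 6 of 14 higher and a median of 0.91. They were Tgfbi (29.0 and 90.0 FPKM, log2 1.60), Col3a1 (285 and 684 FPKM, log2 1.26), Ctgf (51.7 and 124 FPKM, log2 1.24), Fn1 (144 and 319 FPKM, log2 1.14), Acta2 (11.9 and 26.95 FPKM, log2 1.11) and Col1a2 (335 and 704 FPKM, log2 1.07). After scaling to the same sum, Tgfbi was the 1 called. Col1a1, Col1a2 and Col3a1 are also in the fibroblast marker list, and Acta2 and Tagln in the mural cell list, and their part in this count was not tested.

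Other BMP-induced genes were mostly at low levels, with 4 of 10 measured and 0 called. Atoh8 was at 11.3 and 23.2 FPKM (log2 0.97) and Hey1 at 11.9 and 8.39 (log2 -0.46). Of the other ligands, 5 of 21 were measured and 0 called, Inha being at 1.93 and 3.79 FPKM and Bmp15 at 0.925 and 1.80. Of the other receptors and co-receptors, 3 of 7 were measured and 0 called, with the BMP co-receptor Rgma at 40.3 and 51.3 FPKM (log2 0.34) and Nrp1 at 12.4 and 23.6 (log2 0.88).

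Markers of the cells of the nerve moved in the same libraries, and fewer cells of a type cannot be told apart from less RNA per cell in whole nerve. All 10 oligodendrocyte markers were lower, with their summed level at 27620 FPKM in control against 3695 in cKO and a median difference of -2.52. Of 6 precursor markers 3 were lower and 0 higher (sums of 149.6 and 119.7 FPKM, median -0.82). This list was split, with Neu4 (log2 -2.22), Pcdh15 (log2 -1.39) and Lhfpl3 (log2 -1.18) lower. Its most abundant markers, Ptprz1 and Pdgfra, had differences of 0.12 and 0.13, and Cspg4 one of -0.46. Of 10 astrocyte markers 2 were higher and 0 lower (sums of 1143 and 1924 FPKM, median 0.58).

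The medians of the cells of the meninges and vessels lay above 0 as well. Of 10 meningeal fibroblast markers 7 were higher (sums of 1918 and 4476 FPKM, median 1.23), and of 8 mural cell markers 1 (sums of 264 and 484 FPKM, median 0.85). None of 9 endothelial markers (sums of 159.6 and 211 FPKM, median 0.33) or 8 microglia markers (sums of 289 and 465 FPKM, median 0.54) was called. Of 7 neuron markers 1 was higher (sums of 46.3 and 80.5 FPKM, median 0.33). These marker values are on the deposited scale. After scaling to the same sum, 3 fibroblast markers (Dcn, Lum and Slc6a13), 1 astrocyte marker (Gjb6), 0 mural cell and 0 neuron markers were higher, while all 10 oligodendrocyte markers and 3 precursor markers were lower. The medians were then 0.90 for fibroblasts, 0.53 for mural cells, 0.26 for astrocytes, 0.23 for microglia, 0.15 for neurons and 0.04 for endothelium.

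The defining markers of oligodendrocytes and astrocytes were thus detected, while all 6 photoreceptor markers, and Egr2, Ncmap and Pmp2 among 5 Schwann cell markers, were below 1 FPKM in both libraries. The medians of the ligands (0.70) and of the antagonists and latency proteins (0.80) on the deposited scale lie between the astrocyte and mural cell medians. That of the Id and Msx targets (0.53) lies just below the microglia (0.54) and astrocyte (0.58) medians. The part of these cells in the members' differences was not tested. Gdf10 at 2.57 lies above each of the astrocyte, mural cell and fibroblast markers, of which Dcn was highest at 1.63. Smad7 at -1.25 lies between the medians of the precursor and oligodendrocyte markers, and the single precursor markers ran from -2.22 to 0.13.

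**Figure D5:**
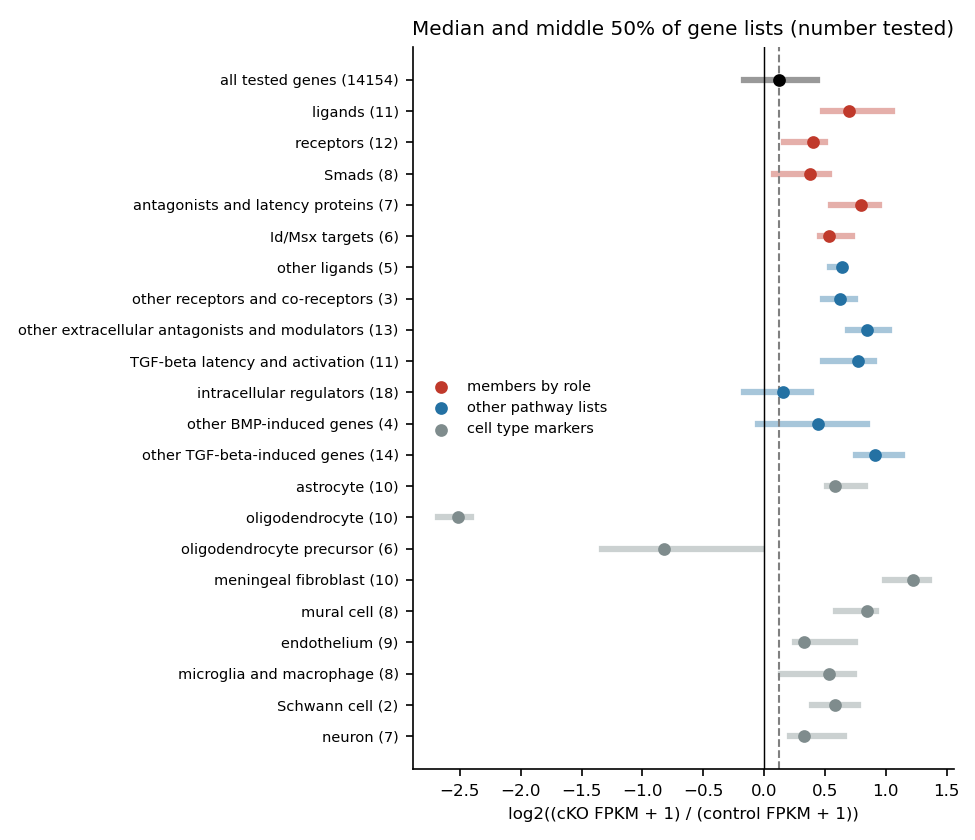
Median log2 difference (points) and middle 50% (bars) of the members by role, the other pathway lists and the cell type marker lists, with the number of measured genes in parentheses and the dashed line at the median of all measured genes, 0.12. Member medians lie between 0.37 and 0.80, oligodendrocyte markers at -2.52 and meningeal fibroblast markers at 1.23.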

How the data were processed

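RNA was extracted from frozen optic nerves with Trizol and made into Illumina TruSeq RNA libraries, per the labels' protocols. The authors deposited FPKM per gene with interval bounds and a status, per the file headers. CASAVA, TopHat, Cufflinks and mm9 are named in the submitters' processing notes. Versions, annotation, strand setting, the level of the intervals and read numbers are not given there, so depth is unknown and no counting interval can be given.

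The tables (24460 entries each) were joined by symbol, start site group and locus. With several entries for a symbol, the one with the highest summed FPKM was kept. Genes needed status OK in both libraries and at least 1 FPKM in 1 of them. Differences are log2 with a pseudocount of 1, computed with Python 3.11.15 and pandas 2.3.3. The steps were tested on simulated data. Alternatives were other pseudocounts, scalings, minimums, call rules and handling of repeated symbols.

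Members, lists, thresholds and alternatives were chosen with earlier results of these data known. All members are named, and those called or at 20 FPKM or more in a library carry their intervals. Of other pathway genes, those called and the 2 with the highest mean FPKM in each list are named. One item that is withheld is not reported here.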

Additional observations from a re-analysis of the deposited data

How the results depend on the processing

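Of the 8 members called, Gdf10 was called in all 11 alternatives. The counts of members called were 7 higher and 1 lower. They became 4 and 0 with a pseudocount of 5, 18 higher with the 1.5-fold rule, 3 higher after centring on the median and 1 higher after scaling to the same sum. After scaling to the same upper quartile they were 5 higher and 1 lower, as with the same sum without small RNAs. Among all measured genes, 638 were lower and 669 higher. There were 1156 higher with a pseudocount of 0.1, 339 lower and 282 higher with a pseudocount of 5, 439 higher after centring, 960 lower and 215 higher after scaling to the same sum, and 1253 lower and 2262 higher with the 1.5-fold rule. The fall with a larger pseudocount or a smaller cKO scale, and the rise with a lower fold, follow from how those settings are built. Relative to all genes, the ligand median was 0.84 with a pseudocount of 0.1 (0.58 before), that of antagonists and latency proteins 0.43 with a pseudocount of 5 (0.68 before), and the mean of the Smads 0.051 (median 0.25). The other group medians moved by no more than 0.2. The log2 ratio of summed ligands was 1.07, and 0.66 without Gdf10. No called member changed sign, while 8 uncalled members did in at least 1 setting, and 11 uncalled members were called in at least 1. No paired analysis was possible because each group has 1 library. For the same reason no library could be left out. Depth is unknown, and differences of genes near 1 FPKM depend most on the pseudocount.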

Other observations

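The FPKM lay above the upper bound of its own deposited interval for 6 of the 47 members in the control library and for 13 in the cKO library. Bmp7, Gdf10, Fstl1, Id1, Id2 and Id3 had this in both libraries, with Id1 at 136 FPKM against an upper bound of 110 in the cKO library.

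Some members have a locus that another entry overlaps. Beside Bmp4, Chrd and Msx1, Orc4 overlaps Acvr2a and was at 5.72 FPKM in control against 5.24 in cKO, both above Acvr2a itself. Fpgs overlaps Eng, at 5.15 and 8.18 FPKM. A330033J07Rik overlaps Id4, at 0.929 and 1.44 FPKM, and Mir6962 lies within Acvr1b and is listed at 0 in both libraries.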
